A study of Mus musculus with 6 samples.

Results

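A set of 10 chemokine genes that are known to draw T, B or NK cells were followed through CD169-lineage cells of the mouse lymph node: 10 of the 32287 features in the gene matrix, namely Cxcl9, Cxcl16, Ccl5, Ccl17, Ccl22, Ccl3, Ccl4, Xcl1, Cxcl13 and Ccl24. All 10 were counted, and all 10 passed the filter on low counts, although a gene can pass that filter through the libraries in which it is high. The cells came from 4 Cd169Cre/+.Tdtomatofl/fl (CD169Tom) mice on a C57BL/6J background and over 6 weeks old. Across its experiments the study used males and females. In CD169Tom mice tdTomato marks every cell that has switched on Siglec1, the gene of CD169, and the progeny of such cells. Inguinal lymph nodes gave the live CD11b+ TOM+ cells, sorted from 2 mice left unimmunized and from 2 that had been immunized 9 days earlier. A hashtag antibody told the mice apart, and all cells were pooled and run in 2 10X captures for CITE-seq, in which mRNA and antibody tags are counted in the same cells. The study's general protocol immunizes with HEL-OVA, hen egg lysozyme chemically linked to a peptide of ovalbumin, in the Sigma Adjuvant System; whether antigen-specific cells were transferred in this experiment was not stated in the sources used here.

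Chemokines are small secreted proteins that steer leukocytes along gradients by binding G protein-coupled receptors, and each lymphocyte subset is steered by the receptors it carries. Cxcl9 acts through CXCR3 and Cxcl16, which is made as a membrane-bound protein, through CXCR6, both on activated T cells and NK cells. Ccl5, Ccl3 and Ccl4 are inflammatory chemokines that draw T cells, NK cells and monocytes. Ccl17 and Ccl22 share CCR4, a receptor of T helper and regulatory T cells. Xcl1 binds XCR1, which in mice marks cross-presenting dendritic cells (cDC1). Cxcl13 binds CXCR5 and builds the B cell follicle. Ccl24 binds CCR3 and is known best as an eosinophil attractant, so that for Xcl1 and Ccl24 the main known target is a cell other than a lymphocyte.

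The first and last base and the strand of each gene on GRCm38 (mm10), from GENCODE vM21, were chromosome 5, 92321347 to 92328079, minus, for Cxcl9; chromosome 11, 70453983 to 70459984, minus, for Cxcl16; chromosome 11, 83525778 to 83530518, minus, for Ccl5; and chromosome 8, 94810453 to 94812036, plus, for Ccl17. Ccl22 lay on the same chromosome 8 strand, at 94745590 to 94751699. Ccl3 (chromosome 11, 83647844 to 83649355, minus) and Ccl4 (chromosome 11, 83662584 to 83664683, plus) lay close to Ccl5. Xcl1 was at chromosome 1, 164931644 to 164935527, minus, Cxcl13 at chromosome 5, 95956951 to 95961068, plus, and Ccl24 at chromosome 5, 135569937 to 135573049, minus. The reads counted by the authors are from the 3′ end of transcripts, so the counts do not separate isoforms that share that end.

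Cxcl9 and Cxcl16 were higher after immunization as means over cell types, and Ccl17 with Ccl22 were lower together in 1 cell type. The Ccl17 and Ccl22 calls depend on 17 cells of 1 mouse, and no sequence was matched for Cxcl16. The 250 bases before the RefSeq start of Cxcl9, Ccl17 and Ccl22 (GRCm38.p6, 5′ to 3′ in the direction of transcription) are shown for this reason. Capitals mark matches on either strand to 4 patterns, GGG and CC with any 5 bases between them (NF-kB-like), GAAA repeated after any 2 bases (interferon response element-like), TTCNNNGAA (STAT-like) and TATAAA.
Cxcl9, chr5:92328080-92328329, minus: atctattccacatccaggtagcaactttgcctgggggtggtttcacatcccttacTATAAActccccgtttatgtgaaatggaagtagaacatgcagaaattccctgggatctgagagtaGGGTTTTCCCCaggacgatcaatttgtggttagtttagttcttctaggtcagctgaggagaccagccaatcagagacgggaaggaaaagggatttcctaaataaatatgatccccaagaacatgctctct
Ccl17, chr8:94810203-94810452, plus: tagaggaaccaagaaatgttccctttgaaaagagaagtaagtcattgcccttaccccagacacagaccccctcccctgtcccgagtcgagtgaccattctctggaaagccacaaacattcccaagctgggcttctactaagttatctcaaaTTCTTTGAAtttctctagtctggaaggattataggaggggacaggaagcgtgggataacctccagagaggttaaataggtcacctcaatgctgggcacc
Ccl22, chr8:94745434-94745683, plus: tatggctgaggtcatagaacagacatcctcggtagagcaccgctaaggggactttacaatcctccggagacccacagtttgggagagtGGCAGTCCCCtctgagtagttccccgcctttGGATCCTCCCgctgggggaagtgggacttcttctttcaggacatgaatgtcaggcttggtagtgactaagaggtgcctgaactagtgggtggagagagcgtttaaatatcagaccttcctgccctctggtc
In Cxcl9 the NF-kB-like pattern matched from -130 to -121 and, overlapping it on the other strand, from -129 to -120, and TATAAA matched from -195 to -190, counted from the base before the start. Ccl22 held the NF-kB-like pattern at -162 to -153 and at -131 to -122, and Ccl17 held the STAT-like pattern at -99 to -91. The Ccl22 stretch ends at 94745683, past the GENCODE first base 94745590, so its last bases lie within the gene as placed above. Its positions are counted from the RefSeq start. Of the 32544 promoters in the table, 46.0% held the NF-kB-like pattern, 2.98% the interferon response element-like pattern, 7.04% the STAT-like pattern and 12.3% TATAAA. A match is a description of the letters. RefSeq sequence was matched for 6 of the 10 members, the other three of them being Ccl3, Xcl1 and Cxcl13. Cxcl16, Ccl5, Ccl4 and Ccl24 are named only.

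The cells kept numbered 2828 and 537 in unimmunized mice 1 and 2 and 4052 and 4722 in immunized mice 1 and 2, with 3817845 to 61983132 UMIs a mouse. The median cell held 5877 and 6280 UMIs without immunization and 9674 and 12728 after it, so that detection was deeper after immunization. Of the 12139 cells kept, 7268 (59.9%) passed 1 of 14 marker gates, none of which used a chemokine gene, and the gates are named after their markers. Each gate held 3 or more of its own markers among its 10 leading genes, which follows from the use of these markers to place the cells. Of the C1q macrophage markers, 7 of 8 were higher in their gate than in the other gates. The 14 gates were medullary sinus macrophage (MSM)-like (460 cells), C1q macrophage-like (992), inflammatory macrophage-like (324, led by Nos2, Saa3 and Acod1), interferon-signature (706), classical monocyte-like (834), nonclassical monocyte-like (687), neutrophil-like (75), Cd209a DC-like (606), cDC1-like (290), migratory DC-like (425), gamma-delta T-like (577), alpha-beta T-like (544), NK-like (444) and B cell-like (304). A CD11b+ TOM+ sort is aimed at myeloid cells, yet 4 of the gates hold T, NK and B cell genes. The CD11b gene Itgam was at 8.6 to 25.6 CPM in the alpha-beta T-like libraries and 0 to 31.0 in the B cell-like libraries, against 87.0 to 202.2 in NK-like, 102.9 to 136.1 in C1q macrophage-like and 0 to 44.4 in migratory DC-like libraries, and the Tomato transcript was at 0 to 28.8 CPM in all. CPM is the count of the gene scaled by the total UMIs of a library, and a library is the sum of the cells of 1 gate in 1 mouse.

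A total of 52 libraries of 10 or more cells (46793 to 10887174 UMIs) entered 1 edgeR quasi-likelihood fit of 11574 genes, with p-values adjusted by Benjamini-Hochberg over all of them. The inflammatory macrophage-like gate had 2 and 0 cells in the unimmunized mice, and the classical monocyte-like and neutrophil-like gates had 6 cells each in unimmunized mouse 2, so those 4 libraries were left out. Nothing places the 2 mice of a group in separate litters or cages. The p-values of this fit rest on the spread between the libraries of the 2 mice of a group within a gate. That spread was pooled over gates, and the gates of a mouse were treated as independent. These p-values therefore do not count the mouse as the unit, as the test of all cells summed per mouse does.

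**Figure D1:**
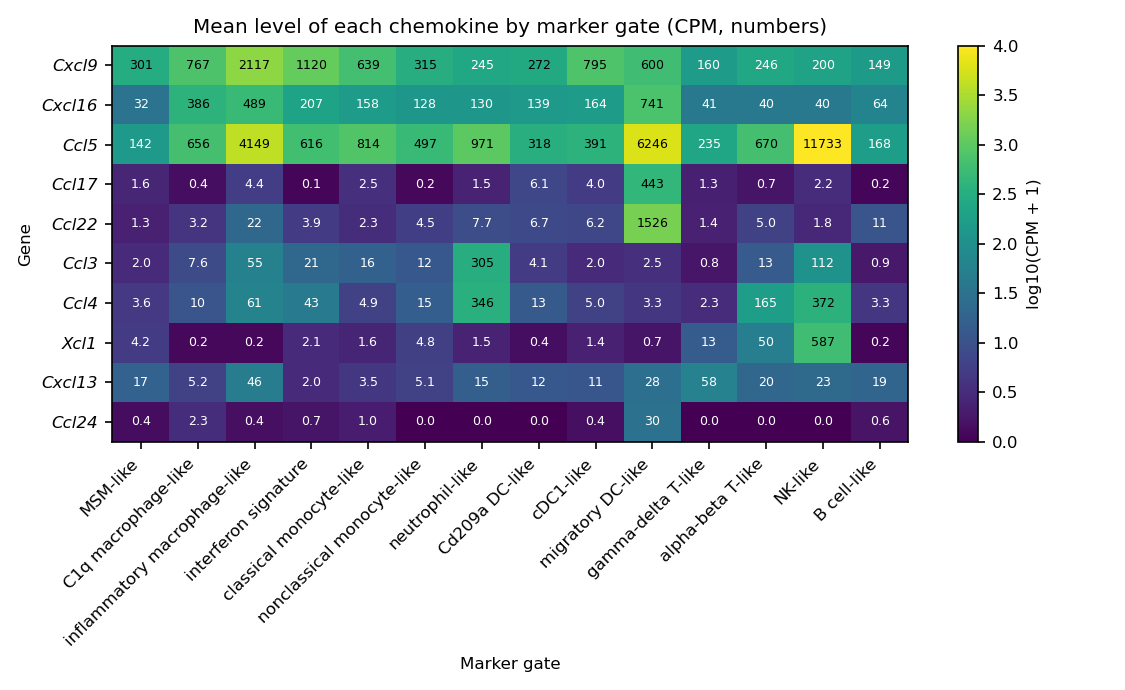
Mean level of each chemokine (rows) in each marker gate (columns), in CPM as numbers and as log10(CPM + 1) in colour, with the mice of each condition averaged first and the conditions weighted equally where a gate has both. Ccl17, Ccl22 and Ccl24 stand out in the migratory DC-like column and Xcl1 in the NK-like column, while the lowest means of Cxcl9, Cxcl16 and Ccl5 in any column are 149.1, 32.4 and 141.6 CPM and each other member has a column at 2.27 CPM or less.

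Each gate was first set against the average of the other gates, weighted equally. The 10 members were called in 36 of 140 member and gate pairs, 27 higher and 9 lower, against 20.6% of pairs called over all genes (14.3% higher and 6.33% lower). At least 1 member was higher in 10 of the 14 gates. The broad members were Cxcl9, Cxcl16 and Ccl5, with a UMI in 53.9% to 59.1% of all kept cells against at most 6.04% for any other member. These shares pool 4 mice that differ in cells and depth, without thinning. In unimmunized mice 1 and 2 and immunized mice 1 and 2 Cxcl9 had 24.1%, 27.7%, 45.4% and 82.8%. In the same order Cxcl16 had 21.1%, 30.4%, 47.4% and 81.7%, and Ccl5 had 44.3%, 50.1%, 50.9% and 76.0%. The highest share of another member in any mouse was 11.5%, for Cxcl13 in unimmunized mouse 1. Ccl17, Ccl22 and Ccl24 were highest in migratory DC-like cells, Xcl1 in NK-like cells, and Ccl3 and Ccl4 in NK-like and neutrophil-like cells. Most Cxcl13 UMIs lay outside the gates in 3 of the 4 mice. Libraries from 1 mouse were treated as independent here; with the mouse as a replicate block 43 pairs were called.

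Cxcl9, the interferon-induced ligand of CXCR3, had its highest gate mean in inflammatory macrophage-like cells, at 1973 and 2262 CPM in immunized mice 1 and 2, the only mice with a library. Interferon-signature cells had 427.8 and 134.6 CPM in unimmunized mice 1 and 2 and 1452 and 2464 in immunized mice 1 and 2, so that the immunized libraries of these gates overlapped. In cDC1-like cells it had 389.4 and 785.8 CPM in the unimmunized against 870.5 and 1134 in the immunized mice. Cxcl9 was higher than in the other gates in these 3 types, by 3.14 (SE 0.42, edgeR adjusted p = 2.33e-07), 1.49 (SE 0.38, adjusted p = 0.00467) and 1.48 (SE 0.38, adjusted p = 0.00439) on the log2 scale, and lower in B cell-like cells (-1.90, SE 0.63, adjusted p = 0.0210). DESeq2 did not call the interferon-signature difference (adjusted p = 0.0872). The inflammatory macrophage-like gate has immunized libraries alone and the other gates average both conditions, so its differences include any effect of immunization. With the libraries of immunized mice alone, an alternative added after the data were seen, edgeR gave 2.06 for this gate (adjusted p = 0.00554) and 1.94 for interferon-signature cells (adjusted p = 0.00911), while cDC1-like (0.84, adjusted p = 0.525) and B cell-like cells (-1.29, adjusted p = 0.201) were not called. The other member calls in the inflammatory macrophage-like gate held there, except Ccl3 (adjusted p = 0.0756). C1q macrophage-like cells followed cDC1-like cells at 408.2 and 49.7 CPM in the unimmunized against 994.6 and 1616 in the immunized mice, a range that overlaps those of the interferon-signature and cDC1-like cells.

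Cxcl9 was higher after immunization over the 13 gates with both conditions, by 2.16 on the log2 scale as an equal-weight mean of the gates' differences (SE 0.28, edgeR adjusted p = 1.04e-06). In 9 of the 11 gates with 2 libraries in each condition both immunized mice lay above both unimmunized mice, and in none below. The background of such separations was 16.7% of gene and gate pairs above and 20.7% below, and gates that share mice do not separate independently. MSM-like cells, the CD169 macrophages of the medulla, went from 105.5 and 147.3 CPM in the unimmunized to 354.0 and 598.4 in the immunized mice, although 1 cell held 67.9% of the UMIs of the last of these libraries. Cd209a DC-like cells went from 64.3 and 34.7 to 246.2 and 741.8 CPM, and nonclassical monocyte-like cells from 161.9 and 63.9 to 172.6 and 860.9 CPM. The exceptions were NK-like cells, with 81.8 and 413.1 CPM against 190.7 and 113.2, and gamma-delta T-like cells, with 76.0 and 313.8 against 223.9 and 24.5. In unimmunized mouse 2 a single cell held 86.3% and 86.5% of the Cxcl9 UMIs of those 2 gates.

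No single gate passed the threshold for Cxcl9 on its own. Migratory DC-like cells came nearest, with 120.7 and 28.2 CPM in the unimmunized against 771.5 and 1481 in the immunized mice (log2 difference 3.63, SE 0.93, adjusted p = 0.0515). Interferon-signature cells had a difference of 2.83 (SE 0.85, adjusted p = 0.141) and Cd209a DC-like cells of 3.24 (SE 0.95, adjusted p = 0.140). Within captures, which hold cells of the same mice, the mean over gates was 2.12 in capture 1 (edgeR adjusted p = 6.12e-05) and 2.20 in capture 2 (adjusted p = 2.25e-05). Without immunized mouse 2 it was 1.51.

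C1q macrophage markers were also found in gates that should lack them. Their summed level in migratory DC-like cells, where it separated the groups as Cxcl9 did, was 106.6 and 28.2 CPM in the unimmunized against 279.0 and 559.7 in the immunized mice, and in B cell-like cells, where the groups overlapped, 465.1, 21.7, 98.0 and 654.5 CPM in the same order, beside Cxcl9 at 41.4, 10.8, 50.4 and 493.7 CPM. In C1q macrophage-like cells themselves these markers summed to 6493 to 9508 CPM. The part of RNA from other cells in the Cxcl9 levels of the lymphoid and dendritic gates was not tested. After thinning every cell to 1000 UMIs, 21.1%, 0%, 32.8% and 53.9% of C1q macrophage-like cells had a Cxcl9 UMI in unimmunized mice 1 and 2 and immunized mice 1 and 2, against 3.66%, 0%, 2.47% and 18.6% of B cell-like cells. The median depth of the 2 gates was 14226 and 4541 UMIs. Read against the B cell-like share, the shares of the C1q gate lay above background in 3 mice, and that of unimmunized mouse 2 rests on 12 cells.

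**Figure D2:**
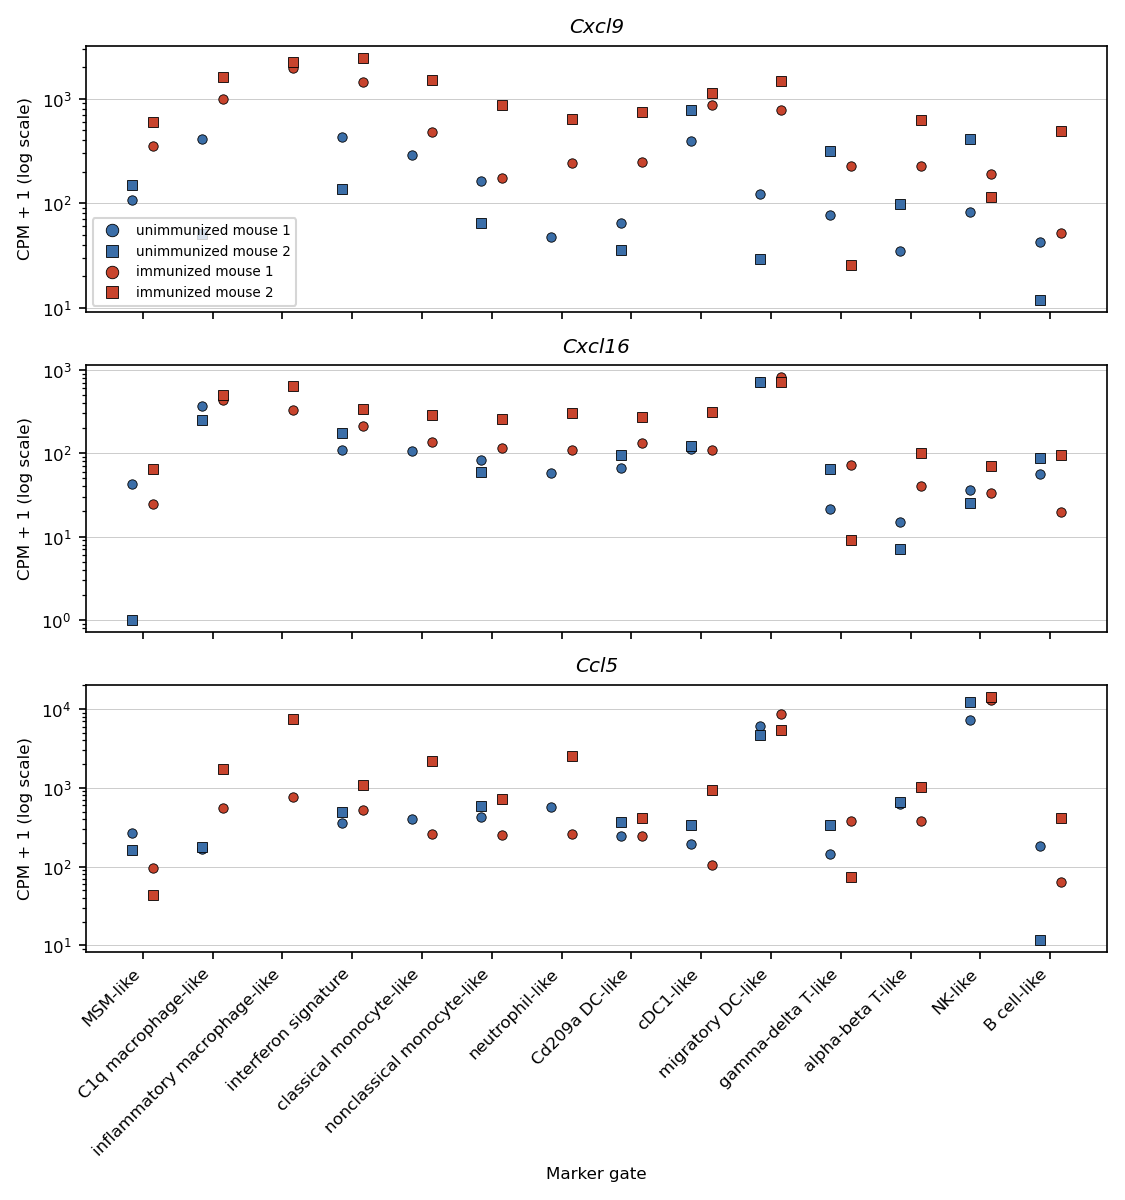
Level of Cxcl9, Cxcl16 and Ccl5 in each marker gate, in CPM + 1 on a log scale, with 1 point for each mouse (blue unimmunized, red immunized; circle mouse 1, square mouse 2) and no point for libraries under 10 cells. The red Cxcl9 points lie above the blue points in most gates, while the Cxcl16 points of migratory DC-like cells lie between 714.5 and 812.6 CPM in all 4 mice.

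Cxcl16, the membrane-bound ligand of CXCR6, was highest in migratory DC-like cells and hardly varied there. Its level was 720.0 and 718.7 CPM in unimmunized mice 1 and 2 and 812.6 and 714.5 in immunized mice 1 and 2, a mean of 741 ± 47.5 CPM (SD, n = 4). The gate's level was above that of the other gates by 3.06 on the log2 scale (SE 0.22, adjusted p = 6.78e-15). Inflammatory macrophage-like cells (331.2 and 646.8 CPM, log2 difference 2.46) and C1q macrophage-like cells (370.4, 248.3, 428.6 and 494.7 CPM, log2 difference 1.90) followed with overlapping ranges. Interferon-signature cells were also higher, by 0.87 (edgeR adjusted p = 0.0271), but this call was kept in 9 and lost in 8 of 17 alternatives. Cxcl16 was lower in 5 gates, with log2 differences of -2.25 in alpha-beta T-like, -1.88 in NK-like, -1.85 in gamma-delta T-like and -1.24 in B cell-like cells, and in MSM-like cells, which had 0 to 64.1 CPM (adjusted p = 0.00171). The gates where Cxcl16 was lowest included those in which its receptor gene was highest, as described with the receptors.

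Cxcl16 also rose with immunization as a mean over gates, by 0.96 on the log2 scale (SE 0.20, edgeR adjusted p = 0.000972), with the gates of a mouse again treated as independent. Cxcl9 and Cxcl16 were the only members called higher there, 2 of 10 against 9.68% of all genes, and none was lower. Of the other members, all but Ccl5 lacked counts in some groups and had no usable error there. They are not read as unchanged. For Cxcl16, Cd209a DC-like cells went from 65.0 and 94.1 CPM in the unimmunized to 130.4 and 268.2 in the immunized mice, and classical monocyte-like cells from 104.3 CPM in unimmunized mouse 1 to 135.2 and 288.8. Both immunized mice were above both unimmunized mice in 5 of 11 gates, beside 16.7% of gene and gate pairs over all genes. In migratory DC-like cells, where the level was highest, the log2 difference was 0.17 (SE 0.49). The mean difference was 0.70 in capture 1 (adjusted p = 0.0797) and 1.07 in capture 2 (adjusted p = 0.0327), and it did not pass the threshold without unimmunized mouse 1 (1.62, adjusted p = 0.106). Without immunized mouse 2 it was 0.46 (adjusted p = 0.0110).

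Ccl5, a chemokine stored by cytotoxic lymphocytes, was highest in NK-like cells at 7336 and 12137 CPM in unimmunized mice 1 and 2 and 13226 and 14232 in immunized mice 1 and 2. Migratory DC-like cells came second with 6135, 4742, 8614 and 5494 CPM in the same order, a range that overlaps the lowest NK-like library. The third gate, inflammatory macrophage-like cells, had 772.7 CPM in immunized mouse 1, where 1 of 24 cells held 52.2% of the Ccl5 UMIs, and 7525 in immunized mouse 2. Against the other gates the log2 differences were 4.16 (SE 0.32), 3.52 (SE 0.34) and 2.91 (SE 0.45), with edgeR adjusted p-values of 1.14e-13, 2.30e-11 and 3.59e-06. The NK-like and migratory DC-like calls held under all 17 alternatives. The inflammatory macrophage-like call held under 16 and was lost in 1, and its lowest log2 difference was 0.83. Ccl5 was lower in MSM-like (-2.56), B cell-like (-2.29) and gamma-delta T-like cells (-1.93). A Ccl5 UMI was found in 84.5%, 90.5%, 93.4% and 97.0% of NK-like cells thinned to 1000 UMIs, in unimmunized mice 1 and 2 and immunized mice 1 and 2, and in 4.88%, 0%, 4.94% and 9.30% of B cell-like cells, at median depths of 5672 and 4541 UMIs.

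The source of Ccl5 in the sort changed with its make-up. NK-like cells held 50.2% and 53.4% of all Ccl5 UMIs in the unimmunized against 30.7% and 2.97% in immunized mice 1 and 2, while their share of the kept cells was 8.20%, 7.82%, 3.38% and 0.70%. The 2 immunized mice differed in the other sources. In immunized mouse 1 migratory DC-like cells held 39.7% of the Ccl5 UMIs, inflammatory macrophage-like cells 0.41% and C1q macrophage-like cells 3.67%. In immunized mouse 2 these gates held 7.09%, 29.0% and 15.9%, and cells outside the gates held 30.2%. As a mean over gates Ccl5 did not pass the threshold (log2 difference 0.76, SE 0.28, adjusted p = 0.0632), and its sign turned without immunized mouse 2 (-0.14) and in capture 1 (-0.13). C1q macrophage-like cells had 164.6 and 173.8 CPM in the unimmunized against 554.8 and 1732 in the immunized mice (log2 difference 2.87, SE 1.03, adjusted p = 0.587).

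Ccl17 and Ccl22, the CCR4 ligands, were highest by far in migratory DC-like cells, a gate whose markers include Ccr7 and Fscn1. Where these cells came from was not tested. Ccl22 had 1175 and 3727 CPM in unimmunized mice 1 and 2 and 675.3 and 527.0 in immunized mice 1 and 2. No other library of 10 or more cells passed 41.4 CPM, which was a B cell-like library in which 1 cell held all 17 UMIs. Ccl17 had 328.5 and 1177 CPM in the unimmunized against 172.9 and 94.0 in the immunized mice, and no other library passed 15.04 CPM. Both were called higher in migratory DC-like cells under all 17 alternatives, and 2325 of 11574 genes (20.1%) were called higher in this gate. This gate made up 2.65% to 4.59% of the kept cells of a mouse and held 89.6%, 97.7%, 90.7% and 46.8% of all Ccl17 UMIs in unimmunized mice 1 and 2 and immunized mice 1 and 2. For Ccl22 these shares were 92.5%, 97.8%, 89.7% and 52.7%.

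Small amounts of both were called in inflammatory macrophage-like cells, where Ccl22 was at 4.80 and 38.8 CPM and Ccl17 at 0 and 8.76 CPM in immunized mice 1 and 2, and 1 cell held 24 of the 40 Ccl17 UMIs. Ccl17 was also called in Cd209a DC-like cells, at 12.4, 0, 4.43 and 7.37 CPM. These 2 Ccl17 calls turned in sign under alternatives and rest on few cells.

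Ccl17 and Ccl22 fell together in migratory DC-like cells after immunization. The log2 difference was -2.24 for Ccl17 (SE 0.45, adjusted p = 0.0116) and -1.84 for Ccl22 (SE 0.38, adjusted p = 0.0134). These were the calls in this gate among the members, 2 of 10, where 0.648% of all genes were called. Both unimmunized mice lay above both immunized mice for both genes. Unimmunized mouse 2, the highest for both, had 17 migratory DC-like cells with 529 Ccl22 and 167 Ccl17 UMIs, against 97 cells with 1080 and 302 in unimmunized mouse 1, 186 cells with 1215 and 311 in immunized mouse 1 and 125 cells with 807 and 144 in immunized mouse 2. Without that mouse the differences were -1.32 for Ccl17 (adjusted p = 0.569) and -0.99 for Ccl22 (adjusted p = 0.666), so both calls depend on its 17 cells. Capture 1 alone gave -1.22 and -1.01 and capture 2 alone -1.44 and -0.98 for Ccl17 and Ccl22, and libraries of 30 or more cells, which leave this mouse out of the gate, gave -1.34 and -1.01, none of them past the threshold. Because 17 cells cannot give 10 in both captures, at least 1 of the single captures also leaves unimmunized mouse 2 out of the gate. The direction held in each setting, but those without this mouse rest on unimmunized mouse 1 alone and are not separate checks.

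The share of migratory DC-like cells with a UMI moved the same way. After thinning to 1000 UMIs, Ccl22 was found in 38.1% and 52.9% of cells in the unimmunized against 23.7% and 18.4% in the immunized mice, and Ccl17 in 16.5% and 29.4% against 11.8% and 7.20%. Without thinning the Ccl22 shares were 60.8%, 70.6%, 54.3% and 50.4%. B cell-like cells had a Ccl22 UMI in at most 0.617% of thinned cells in any mouse, at a median depth of 4541 UMIs against 10049 in the migratory DC-like gate. The levels were uneven among cells, the 10% of the gate's cells with the most holding 40.3% to 66.3% of the Ccl22 UMIs and 61.1% to 85.4% of the Ccl17 UMIs of a mouse. An alternative added after the data were seen took the gene's UMIs of its highest cell out of each library. The other UMIs of that cell stayed in the library. Both genes were still called by edgeR there (-1.92, adjusted p = 0.0151 and -1.68, adjusted p = 0.0179).

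Cells with Ccl17 mostly had Ccl22 as well. Of the migratory DC-like cells with a Ccl17 UMI, 88.4%, 88.9%, 86.8% and 83.3% had a Ccl22 UMI in unimmunized mice 1 and 2 and immunized mice 1 and 2, against 38.9% to 41.4% of the cells without one in 3 mice and 4 of 8 such cells in unimmunized mouse 2. Cells with a Ccl17 UMI were also deeper, with a median of 12239 against 6459 UMIs in unimmunized mouse 1 and 12998 against 11051 in immunized mouse 2. The summed level of the gate's own 8 markers, which the rule of the gate used, was 6343 and 7715 CPM in the unimmunized against 6735 and 4962 in the immunized mice. Among the other members in this gate, both immunized mice lay below both unimmunized mice for Ccl24 and above them for Cxcl9, Ccl3 and Ccl4, none of them past the threshold. The groups overlapped for Cxcl16, Ccl5, Cxcl13 and Xcl1. Over all genes and gates, 16.7% of pairs lay above and 20.7% below in this way. Ccl3 had 1 and 0 UMIs in the unimmunized against 2 and 12 in the immunized mice. Ccl4 had 0 and 0 against 13 and 9 UMIs, and Ccl24 had 1 UMI in immunized mouse 2. These separations therefore lie near the floor of detection, except that of Cxcl9. The log2 difference of Ccl5 was 0.46 (SE 0.85, adjusted p = 0.924).

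**Figure D3:**
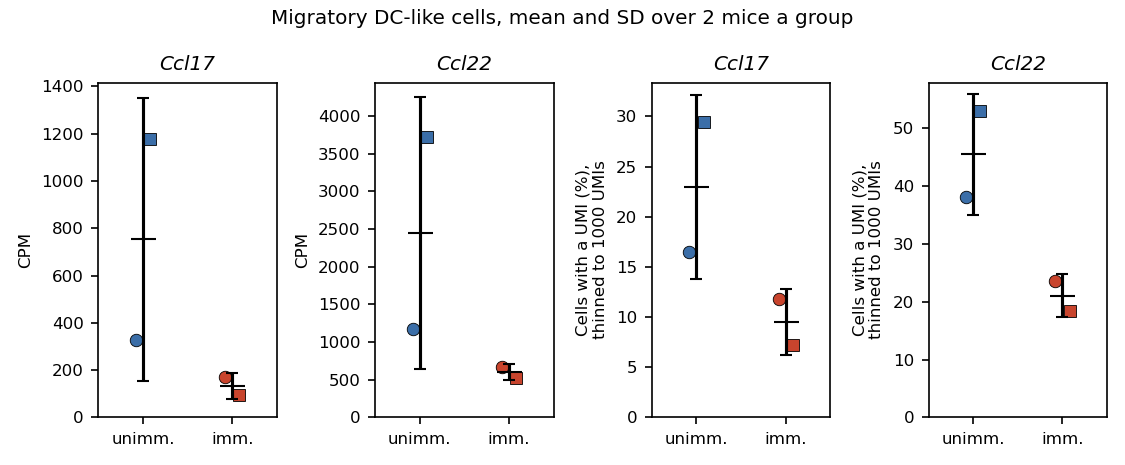
Level in CPM and share of cells with a UMI, in % after thinning to 1000 UMIs, of Ccl17 and Ccl22 in migratory DC-like cells, with 1 point for each mouse (circle mouse 1, square mouse 2) and bars for the mean and SD over the 2 mice of a group. Both immunized mice lie below both unimmunized mice in all 4 panels, and unimmunized mouse 2, with 17 cells, is the highest point in each.

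Ccl24, the CCR3 ligand, was the rarest member, with 172 UMIs in 52 of the 12139 cells. Migratory DC-like cells had 35.9 and 56.4 CPM in unimmunized mice 1 and 2 and 27.8 and 0.65 in immunized mice 1 and 2, from 9, 2, 3 and 1 cells with a UMI, and were called higher than the other gates (adjusted p = 7.99e-11). In immunized mouse 1 a single cell held 39 of the 50 UMIs. The highest level in another gate was 6.86 CPM in the C1q macrophage-like cells of unimmunized mouse 1, from 2 UMIs. Ccl24 thus passed the filter on low counts through the migratory DC-like gate, the gate then tested. The call is therefore no support beyond the levels themselves. The difference of Ccl24 with immunization in migratory DC-like cells did not pass the threshold (adjusted p = 0.555).

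Xcl1, the ligand of XCR1, was the member most closely tied to NK-like cells. It had 856.2 and 522.4 CPM in unimmunized mice 1 and 2 and 444.2 and 525.6 in immunized mice 1 and 2, a mean of 587 ± 183 CPM (SD, n = 4). Alpha-beta T-like cells were next with 79.4, 85.1, 8.02 and 29.1 CPM, all below the lowest NK-like library, and gamma-delta T-like cells had 7.09, 30.2, 8.14 and 8.18 CPM. All 3 gates were called higher than the rest, with edgeR adjusted p-values of 2.28e-27, 6.00e-10 and 0.0163. The gamma-delta T-like call was kept in 9, lost in 7 and reversed in sign in 1 of 17 alternatives. One that lost it left out the Xcl1 UMIs of the highest cell of each library (edgeR adjusted p = 0.0954). NK-like cells held 68.2%, 70.9%, 80.1% and 62.8% of all Xcl1 UMIs of the 4 mice. After thinning, an Xcl1 UMI was found in 34.9%, 31.0%, 27.0% and 12.1% of NK-like cells in unimmunized mice 1 and 2 and immunized mice 1 and 2 and in 0% of B cell-like cells. Without thinning the NK-like shares were 69.8%, 66.7%, 51.8% and 66.7%. The 33 NK-like cells of immunized mouse 2 were the lowest when thinned and not in CPM, so no order of the mice is read from the shares.

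With immunization Xcl1 in NK-like cells changed by -0.46 on the log2 scale (SE 0.35, adjusted p = 1.00). In alpha-beta T-like cells the 2 groups did not overlap (log2 difference -2.13, SE 0.51, adjusted p = 0.0687). Nonclassical monocyte-like cells were called lower (adjusted p = 0.00512), from 19.0 CPM in unimmunized mouse 1 and 0 in the other 3 mice. All 25 UMIs of that call came from 9 of 178 cells of 1 mouse, the summed NK marker level in that library was 28.9 CPM against 0 to 7.6 in the other three, and the call was lost with limma voom and the mouse as a replicate block (adjusted p = 0.101), with HTODemux (0.652), with Leiden clusters (0.887) and after removal of likely doublets (0.404).

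Ccl3 and Ccl4, both inflammatory chemokines, lie side by side in the genome and were found together. In NK-like cells Ccl4 had 437.4 and 153.9 CPM in unimmunized mice 1 and 2. It had 411.1 and 485.2 CPM in immunized mice 1 and 2. Ccl3 had 108.1, 76.9, 164.2 and 97.0 CPM in the same order. In immunized mouse 1 the highest NK-like cell for each gene held 59.0% of the Ccl4 and 57.0% of the Ccl3 UMIs. In immunized mouse 2 it held 54 of 120 Ccl4 and 20 of 24 Ccl3 UMIs. Without those 20 UMIs Ccl3 was at 16.2 CPM there. In unimmunized mice 1 and 2 the highest cell held 31.9% and 21.1% of the Ccl4 and 32.5% and 26.3% of the Ccl3 UMIs. Neutrophil-like cells had 224.9 CPM of Ccl4 in unimmunized mouse 1 and 921.4 and 11.3 in the immunized mice, and 159.3, 891.1 and 11.3 CPM of Ccl3. The 2 immunized libraries of this gate held 31 and 15 cells, and in the first of them 1 cell held 68.0% of the Ccl3 UMIs. Both genes were called higher in NK-like (adjusted p = 4.35e-10 for Ccl3 and 1.55e-11 for Ccl4), neutrophil-like (1.37e-05 and 0.000648) and interferon-signature cells (0.0248 and 0.0191), and Ccl3 also in inflammatory macrophage-like cells (0.00338), where it had 86.4 and 24.3 CPM and 1 cell held 88.9% of the UMIs of immunized mouse 1. In the interferon-signature libraries of unimmunized mouse 1 and immunized mouse 1 a single cell held 68.3% and 59.2% of the Ccl4 UMIs. The interferon-signature calls were lost in 6 of 17 alternatives for Ccl3 and in 4 of 17 for Ccl4. Of the NK-like cells with a Ccl3 UMI, 48.1% to 81.8% had a Ccl4 UMI over the 4 mice, against 16.1% to 28.2% of those without. The background for higher calls was 17.8% of genes in the NK-like and 12.1% in the interferon-signature gate.

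Neither gene changed past the threshold in NK-like cells with immunization (log2 difference 0.59, SE 0.70 for Ccl3 and 0.57, SE 0.84 for Ccl4). Ccl4 was called higher in alpha-beta T-like cells (adjusted p = 0.0375), at 1.62 and 15.2 CPM in the unimmunized against 7.01 and 634.2 in the immunized mice. The last value came from 1 cell, which held 366 of the 371 UMIs of immunized mouse 2. Without the Ccl4 UMIs of the highest cell of each library the difference was no longer called (edgeR adjusted p = 0.894). The voom fit with the mouse as a replicate block did not call it either (adjusted p = 0.530), while 8 of the 16 alternatives, Leiden clusters among them, kept the call. The level behind this call is that of 1 cell.

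**Figure D4:**
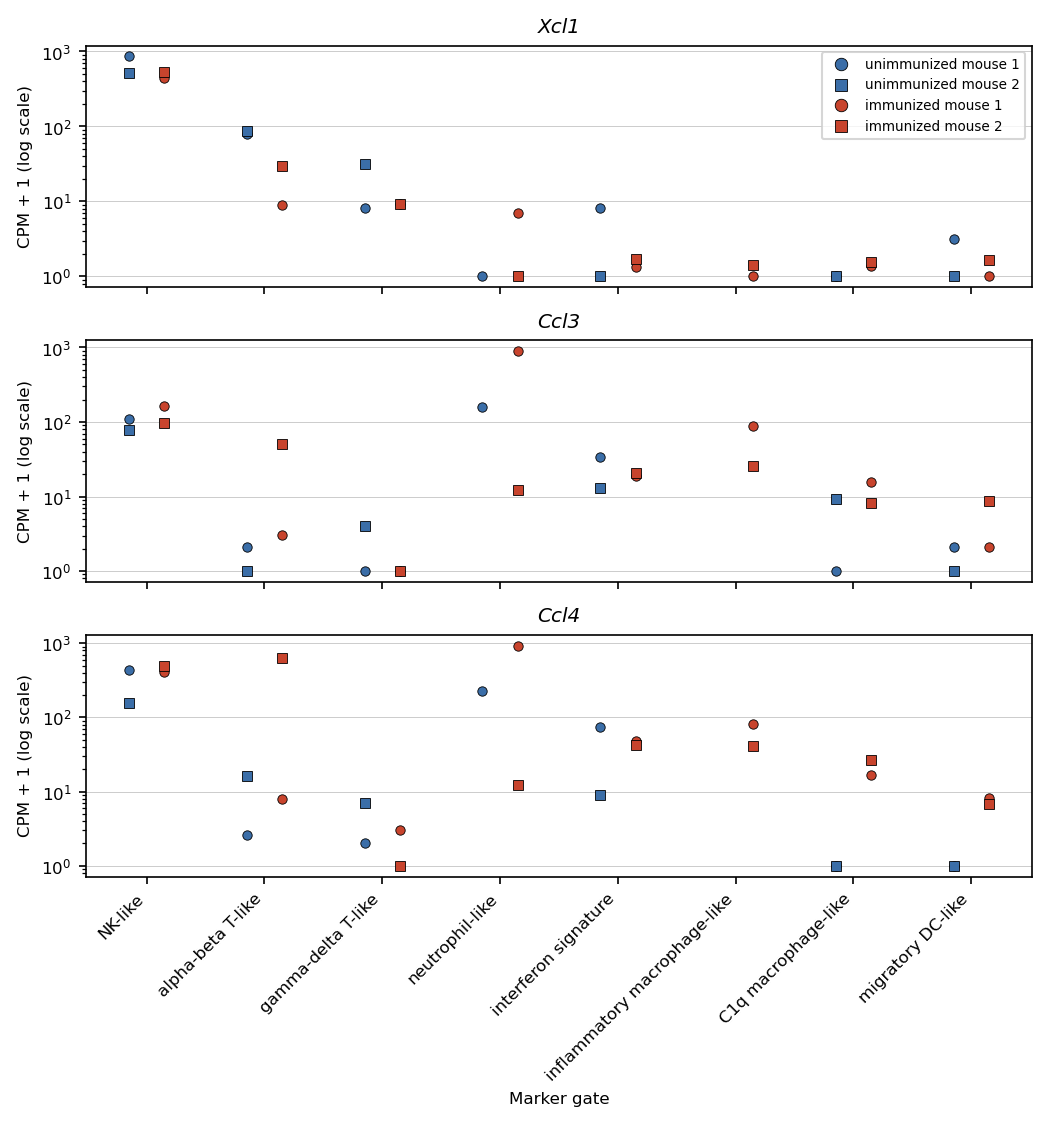
Level of Xcl1, Ccl3 and Ccl4 in 8 of the marker gates, in CPM + 1 on a log scale, with 1 point for each mouse (blue unimmunized, red immunized; circle mouse 1, square mouse 2). The 4 NK-like points of Xcl1 lie between 444.2 and 856.2 CPM, and the highest alpha-beta T-like point of Ccl4, 634.2 CPM, is the library in which 1 cell held 366 of 371 UMIs.

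Cxcl13, the B cell attractant that organises follicles, was low in all gates. The highest gate was gamma-delta T-like cells, with 37.5 and 36.2 CPM in unimmunized mice 1 and 2 and 34.6 and 122.7 in immunized mice 1 and 2, the last from 15 UMIs in 17 cells (against the other gates, adjusted p = 0.00463). NK-like cells had 16.2 to 29.4 CPM. In migratory DC-like cells of immunized mouse 2 the level was 74.5 CPM, of which 1 cell held 106 of 114 UMIs. Cells outside the gates held 73.8%, 52.1%, 57.5% and 36.9% of the Cxcl13 UMIs in unimmunized mice 1 and 2 and immunized mice 1 and 2, at 186.0, 26.4, 17.1 and 4.06 CPM.

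How evenly the UMIs were spread over cells set the members apart. Cxcl9, Cxcl16 and Ccl5 had a UMI in 6580, 6539 and 7172 of the 12139 cells, and the 10 highest cells held 2.13%, 0.90% and 3.28% of their UMIs. The other 7 members had a UMI in 52 to 733 cells, and their 10 highest cells held 23.2% (Ccl22) to 66.3% (Ccl24). Single cells therefore weigh on the levels of the second group far more than on those of the first.

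**Figure D5:**
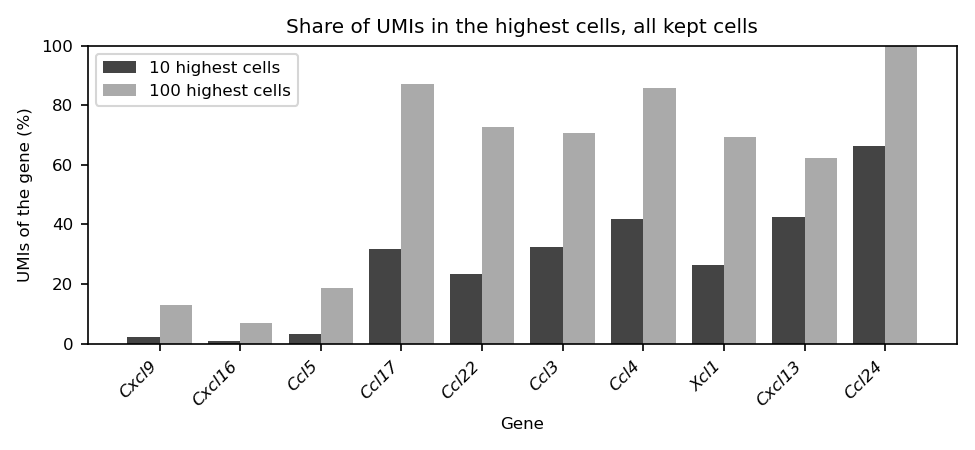
Share of all UMIs of each chemokine, in %, held by the 10 cells (dark bars) and the 100 cells (light bars) with the most UMIs of it among the 12139 cells kept. The dark bars of Cxcl9, Cxcl16 and Ccl5 stay under 4%, and those of the other 7 members lie between 23.2% and 66.3%.

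Immunization was called within a gate in 4 of 130 member and gate pairs, 1 higher and 3 lower, against 0.284% of pairs over all genes. These were Ccl17 and Ccl22 in migratory DC-like cells, Ccl4 in alpha-beta T-like cells and Xcl1 in nonclassical monocyte-like cells. With limma voom and the mouse as a replicate block 2 pairs were called, Ccl17 and Ccl22. Whether a gate's change differed from that of the other gates was tested for each pair by edgeR, and 0 of 130 were called, 8 having an unadjusted p under 0.05 and 0 being called by DESeq2; over all genes 0.00731% of pairs were called. Ccl22 in migratory DC-like cells had an edgeR difference of -2.75 from the other gates (adjusted p = 0.377), so a change particular to this gate was not shown. Those other gates include MSM-like and C1q macrophage-like cells, where Ccl22 had 0 UMIs in both unimmunized mice. The size of this difference therefore depends on the fit's prior count, and its error is not usable. Members without counts in some groups had no usable error in the mean over gates. The median of the 10 fitted means was 0.73 against 0.05 over all genes. Every member but Cxcl9, Cxcl16 and Ccl5 lacked counts in some groups, and fitted values there depend on the fit's prior count. The median is therefore not read as a result about the members.

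Summed over all kept cells of a mouse, where the make-up of the sort and the level per cell cannot be told apart, Cxcl9 had 161.9 and 239.9 CPM in the unimmunized against 624.0 and 1600 in the immunized mice. Cxcl16 went from 99.5 and 112.4 to 203.7 and 388.6 CPM. Xcl1 went from 103.6 and 47.7 to 12.9 and 3.34 CPM, and Ccl22 from 61.7 and 141.7 to 34.7 and 24.7 CPM. The groups did not overlap for any of these members, nor for Ccl17, Cxcl13 and Ccl24, which were lower after immunization. They overlapped for Ccl5, Ccl3 and Ccl4. The share of all genes without overlap was not counted, so the separations are no result about the members. Xcl1 moved beside the share of NK-like cells given above. None of these passed the threshold in edgeR's test of 4 libraries (adjusted p = 0.107 for Cxcl9 and Cxcl16, 0.108 for Xcl1 and 0.126 for Ccl22), in which 0 of 13596 genes were called, 3894 (28.6%) had an unadjusted p under 0.05, and DESeq2 called 1557.

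The receptors of the members were measured as a list of 8 genes, of which 7 passed the filter. They were called higher in 16 and lower in 6 of 98 gene and gate pairs, shares near the 14.3% and 6.33% over all genes. Cxcr3 was higher in NK-like (44.5 to 56.3 CPM), alpha-beta T-like, B cell-like and cDC1-like cells. Cxcr6 was higher in gamma-delta T-like (869.0 to 1039 CPM), alpha-beta T-like (126.5 to 679.3) and NK-like cells (52.6 to 108.7), the gates in which its ligand Cxcl16 was lower. Cxcr5 was higher in B cell-like cells (16.9 to 108.3 CPM) and alpha-beta T-like cells, and Ccr4 in alpha-beta T-like cells alone, at 0 to 18.0 CPM. Xcr1 was a marker of the cDC1 gate and is no finding there.

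With immunization, Cxcr6 fell as a mean over gates by 3.05 (SE 0.43, adjusted p = 3.44e-06). In gamma-delta T-like cells, its main source, Cxcr6 was at 977.7 and 869.0 CPM in the unimmunized against 942.6 and 1039 in the immunized mice, and that gate's change lay above those of the other gates (log2 difference 3.41, adjusted p = 0.0278). In nonclassical monocyte-like cells Cxcr6 was at 51.7 and 4.6 CPM in the unimmunized against 2.0 and 0.6 in the immunized mice, beside a summed gamma-delta T marker level of 25.1, 0, 1.7 and 2.3 CPM. Gamma-delta T-like cells were 15.8% and 9.50% of the kept cells without immunization and 1.51% and 0.36% after it. The part of RNA from those cells in the fall of Cxcr6 was not tested.

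Of the other chemokines that act on lymphocytes, 11 were in the matrix and 8 passed the filter, with 19 higher and 7 lower calls in 112 pairs, beside the same 14.3% and 6.33%. Cxcl10, which shares CXCR3 with Cxcl9, was higher in inflammatory macrophage-like cells (1925 and 708.6 CPM) and interferon-signature cells (679.4, 752.2, 1167 and 1048 CPM) and rose with immunization as a mean over gates by 1.88 (SE 0.24, adjusted p = 7.52e-07). Unlike Cxcl9 it passed the threshold within single gates, from 15.2 and 7.0 to 73.9 and 271.7 CPM in migratory DC-like cells (adjusted p = 0.0309), in Cd209a DC-like cells (adjusted p = 0.0450) and in alpha-beta T-like cells (adjusted p = 0.0302). Whether Cxcl9 and Cxcl10 differed from each other was not tested. Ccl8 was higher in MSM-like (7.82 on the log2 scale) and C1q macrophage-like cells (3.04), and Cx3cl1 in migratory DC-like cells. Of the 5 atypical receptors, which bind chemokines without steering cells, 3 passed the filter, with 8 higher and 3 lower calls in 42 pairs, and Ccrl2 in cDC1-like cells was the only one called with immunization (log2 difference 3.41, adjusted p = 0.0436).

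The genes whose pattern was most like each member were taken by Pearson's r of log2(CPM + 5) over the 52 libraries, which share mice and differ in depth. Ccl3 and Ccl4 were each other's nearest gene (r = 0.895), and Ccl17 and Ccl22 had r = 0.924. The 2 nearest genes were Batf2 (0.833) and Vdac2 (0.812) for Cxcl9, Icam1 (0.864) and Cd40 (0.820) for Cxcl16, and H2-Q7 (0.790) and Rhoc (0.761) for Ccl5. They were Gm10432 (0.948) and Gm3764 (0.943) for Ccl17 and Tnnt2 (0.941) and Adcy6 (0.938) for Ccl22, and the nearest for Ccl24 was 1700016F12Rik (0.939). Xcl1 was nearest to Sytl3 (0.960) and Klrc1 (0.943), an NK cell receptor gene. Selenon (0.733) was second for Ccl3 and Elovl7 (0.724) for Ccl4, and Cxcl13 had the lowest values, 0.649 with Prr7 and with 1810058I24Rik.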

How the data were processed

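The members and gene lists were chosen with earlier results of these data known. The authors mapped the 3′ mRNA libraries of both captures to mm10-3.0.0 and counted UMIs with Cell Ranger 4.0.0 (count, then aggr), and counted hashtags and antibody tags with CITE-seq-count; whether aggr evened out the captures' reads was not stated. The deposited counts of genes and hashtags are raw whole numbers. Antibody counts were not used here.

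Of 18662 barcodes, 1242 with a sequence shared by both captures were left out, because hashtag barcodes carry no capture number, as were 1238 without a hashtag row, 594 with over 25% mitochondrial UMIs and 3449 in which no hashtag held 80% of at least 10 hashtag counts. The labels assign hashtags 1 and 2 to unimmunized and 3 and 4 to immunized mice. Hashtags do not show doublets within a mouse. Scrublet's own threshold called 1101 barcodes in capture 1 and 0 in capture 2, so an alternative removed the 247 kept cells of highest score.

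A cell passed a gate when the mean z-score of log-normalized markers was over 0.5, 2 or more markers were detected and the next gate was 0.25 lower. These limits were set after marker scores, not chemokine levels, had been seen. The gates used 91 of 92 listed markers; Mx1 was not used. Counts summed per mouse and gate were fitted with edgeR 4.0.16 (R 4.3.3, TMM, filterByExpr, quasi-likelihood; common dispersion 0.0349), threshold 0.05. Fold changes of members without counts in a group depend on the prior count, so CPM is given. An SE beside an edgeR difference is the absolute log2 difference over the square root of the test's F. It was worked back from the test and is not a separately estimated error. The genes named were the members in every gate, genes of the other lists that a result turned on, and the 2 genes most like each member. The results of 2 of these genes are not reported here. Alternatives were DESeq2 1.42.0, RLE size factors, no filter, HTODemux (Seurat 5.3.0), Leiden clusters made without chemokine genes (scanpy 1.11.5, leidenalg 0.10.2), other cell and library limits, single captures, each mouse left out, immunized mice alone, and a mouse block, fixed in edgeR or random in limma 3.58.1. On simulated counts with 200 changed genes, the immunization contrast in migratory DC-like cells recovered 14% of 2-fold and 76% of 4-fold changes among 10445 genes, and the mean over gates 81% and 91% among 10395 genes. These counts had the common dispersion for every gene, 1 mean profile for all gates and no effect shared by the libraries of a mouse. Recovery of members carried by few cells, or with gates that share mice, was not measured by them and can be lower. The gates of a mouse share an animal, which pairs their libraries; the consensus correlation within mice was 0.0669.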

Additional observations from a re-analysis of the deposited data

Results flagged for a closer look

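For some members both immunized mice lay above both unimmunized mice in some gates and below them in others. Only gates in which the member had 20 or more UMIs were used. These opposite moves were not tested against each other, and the test of each gate's change against the mean of the others called none of them. Over all genes, both immunized mice lay above both unimmunized mice in 16.7% and below them in 20.7% of gene and gate pairs. The share of all genes separated in both directions was not counted, so the flags are no result about the members. For Ccl5 this concerned 4 gates, with higher levels in C1q macrophage-like, interferon-signature and NK-like cells and lower levels in MSM-like cells, where it went from 267.4 and 160.7 to 95.6 and 42.7 CPM. In that gate 1 cell held 75 of the 190 Ccl5 UMIs of unimmunized mouse 1, and immunized mouse 2 had 2 UMIs in 1 cell. For Ccl17 it concerned 2 gates, lower in migratory DC-like cells and higher in cDC1-like cells, where it went from 0 and 0 to 0.98 and 15.04 CPM with 17 of the last 20 UMIs in 1 cell. Ccl22 was flagged in 3 gates, lower in migratory DC-like cells and higher in C1q macrophage-like cells (0 and 0 against 5.42 and 7.26 CPM) and interferon-signature cells (2.43 and 0 against 3.89 and 9.26 CPM). Ccl3 was flagged in 2 gates, higher in alpha-beta T-like cells and lower in nonclassical monocyte-like cells (21.3 and 13.7 against 5.96 and 5.29 CPM). A single alpha-beta T-like cell held 18 of the 29 Ccl3 UMIs of immunized mouse 2. Ccl4 was flagged in 4 gates, higher in C1q macrophage-like and migratory DC-like cells (0 and 0 against 7.23 and 5.88 CPM in the latter) and lower in nonclassical monocyte-like and cDC1-like cells. A single nonclassical monocyte-like cell held 53 of the 55 Ccl4 UMIs of unimmunized mouse 1. Cxcl13 was flagged in 2 gates, higher in B cell-like cells (4.87 and 0 against 13.5 and 59.2 CPM) and lower in Cd209a DC-like cells (12.4 and 29.7 against 3.13 and 0.87 CPM).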

How the results depend on the processing

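Of the values of single members, 663 kept their direction and side of the threshold over the alternatives, 98 lost a call, 28 gained one and 12 reversed. The 36 member and gate pairs became 56 without a filter, 43 with the mouse as a fixed replicate block, 23 to 48 with a mouse left out, and 27 in immunized mice alone. The 4 immunization pairs became 38 without a filter, 2 in capture 1, 0 in capture 2, 2 in libraries of at least 30 cells, 2 with the mouse as a random replicate block, and 1 (without unimmunized mouse 2) to 37 (without immunized mouse 1) with a mouse left out, where lone libraries are assumed to vary like the others. The 0 differences between gates became 13 without a filter and 0 to 5 with a mouse left out, and stayed 0 with the block. The 1499 genes called as a mean over gates became 790 with Leiden clusters, 533 in capture 1, 726 in capture 2, and 566 to 1252 with a mouse left out. Over all cells the 0 genes became 1557 with DESeq2, 2720 without a filter, and 0 to 4172 with a mouse left out. The mean share of cells with a UMI rose without thinning from 33.3% to 59.0% for Ccl22 in migratory DC-like cells, from 26.2% to 63.8% for Xcl1 in NK-like cells and from 49.6% to 84.1% for Cxcl16 in migratory DC-like cells; at 500 UMIs the last was 33.8% and Ccl5 in NK-like cells went from 91.3% to 82.7%. Reversed log2 differences were, against the other gates, Ccl17 in inflammatory macrophage-like cells, -0.72 in capture 2 and -3.22 without immunized mouse 2; Ccl17 in Cd209a DC-like cells, -0.46 without unimmunized mouse 1; Ccl3 in neutrophil-like cells, -0.71 in capture 1; and Xcl1 in gamma-delta T-like cells, -0.19 in capture 1. With immunization they were Ccl5 over gates, -0.13 in capture 1 and -0.14 without immunized mouse 2; Ccl5 over all cells, -0.20 without immunized mouse 2; Ccl3 over all cells, 0.027 with HTODemux, 0.39 without unimmunized mouse 1 and 0.12 without immunized mouse 2; and Ccl4 over all cells, 0.44 without unimmunized mouse 1. Cxcl9 as a mean over gates was called in all 16 alternatives (1.49 to 2.55), and the random block kept the calls of Cxcl9 (2.16) and Cxcl16 (0.91). DESeq2 gave no adjusted p for Ccl17 in migratory DC-like cells, and Xcl1 in nonclassical monocyte-like cells had no counts left without unimmunized mouse 1. With a mouse left out these reversed values ranged from -3.22 to 3.60 (Ccl17, inflammatory macrophage-like), -0.46 to 3.51 (Ccl17, Cd209a DC-like), -0.14 to 0.86 (Ccl5 over gates), -0.20 to 0.80 (Ccl5 over all cells), -0.51 to 0.39 (Ccl3) and -0.84 to 0.44 (Ccl4). The causes of these shifts were not tested. With 2 mice a group and 17 migratory DC-like cells in 1 of them, changes of 2-fold within a gate were mostly beyond reach.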

Other observations

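Cxcl13 was concentrated in very few cells. The 10 cells with 20 or more Cxcl13 UMIs, a limit chosen after the values were seen, held 851 of the 2001 Cxcl13 UMIs (42.5%), and 8 of them came from unimmunized mouse 1. Of the 10 cells, 9 passed no gate and 1 was the migratory DC-like cell of immunized mouse 2 described above. They held 26 to 178 Cxcl13 UMIs at a depth of 6407 to 13897 UMIs. Their leading genes, given as a description, were Clu (12330 CPM against 16.2 in all other cells, a secreted chaperone), Enpp2 (9310 against 2.14, the enzyme that makes lysophosphatidic acid), Mfge8 (7453 against 11.4, which bridges apoptotic cells to phagocytes), Igfbp7 (1642 against 13.4), Bgn (1198 against 1.33) and Tnfsf11 (1090 against 1.13, the gene of RANKL). Clu, Enpp2, Mfge8 and Igfbp7 had a UMI in all 10 cells. No marker list for stromal cells had been fixed, so these cells are left unnamed.

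Cells that passed no gate also held much of Cxcl9. They were 27.5% and 38.2% of the cells of unimmunized mice 1 and 2 and 38.0% and 49.8% of those of immunized mice 1 and 2, and held 31.9%, 36.5%, 40.6% and 47.9% of the Cxcl9 UMIs, at 208.1, 238.3, 711.3 and 1578 CPM.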
